A study of Mus musculus with 12 samples.

Results

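The genes described here encode laminin chains and nidogen 1, proteins of the lens capsule. They were chosen by name as the rows of the expression tables with the symbols Lama1, Lama3, Lama4, Lama5, Lamb1, Lamb2, Lamb3, Lamc1 and Nid1, which gave 9 of 45859 genes. RNA was measured in lens cells (LCs) left on the capsule of 2-month-old adult mice after surgical removal of the fiber cells, a model of cataract surgery, either at once (0 h post cataract surgery, PCS) or 24 h PCS. WT mice were C57BL/6. The β8ITG-cKO mice carried a floxed Itgb8 allele, the gene of the β8 integrin subunit, with exon 4 removed by the lens-specific MLR10-Cre transgene, and are labelled as a mix of C57BL/6 and 129S1/Sv. The study's methods name C57BL/6J 129/Sv for the floxed line, C57BL/6<har> for the Cre line and a long backcross to the latter. With strain and genotype changing together, the effect of the deletion and of the strain cannot be told apart. Every group went through the same surgery, and each of the 4 groups had 3 libraries made from 5 pooled capsules each, so p-values measure the spread between pools. In such bulk RNA, fewer cells of a type and less RNA per cell cannot be told apart.

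Laminins are trimers of an α, a β and a γ chain that polymerize into the cell-facing sheet of a basement membrane. Cells bind the C-terminal domain of the α chain through integrins and dystroglycan. Nidogens bind both the laminin γ1 chain and type IV collagen, and so bridge the laminin and collagen networks. The lens capsule is a thick basement membrane that the lens epithelium makes throughout life and to which the LCs remain attached after cataract surgery.

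The promoters of Nid1, the most abundant member, and Lama5, the member that made up the largest share of α chain mRNA at 24 h PCS, are shown first. They are RefSeq sequences on GRCm38.p6 at chr13:13437352-13437550 on the plus strand and chr2:180225913-180226109 on the minus strand. Both end before the first annotated start of the gene, and capitals mark the GC box GGGCGG on either strand.
Nid1: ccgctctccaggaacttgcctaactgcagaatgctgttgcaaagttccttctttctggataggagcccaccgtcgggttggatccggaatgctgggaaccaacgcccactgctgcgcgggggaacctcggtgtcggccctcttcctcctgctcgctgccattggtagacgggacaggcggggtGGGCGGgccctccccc
Lama5: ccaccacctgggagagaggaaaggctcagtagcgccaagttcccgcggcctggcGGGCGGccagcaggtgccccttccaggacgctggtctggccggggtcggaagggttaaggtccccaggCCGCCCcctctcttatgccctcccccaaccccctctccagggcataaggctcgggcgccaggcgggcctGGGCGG

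Of the 9 members, 5 had a promoter in the RefSeq table, and 4 of these were searched over the 250 bases before the RefSeq start. The searches covered both strands for the GC box given above, the CCAAT box, the letters TATAAA of a TATA box and the AP-1 site, whose letters are TGANTCA. No match of one lay over a match of another in these 4 promoters. Lama5 held 4 GC boxes, and that at position -14 lies beyond the 197 bases printed above. Lamb1 held 2 and Nid1 1, while Lamb2 held none, and 32.7% of 32851 promoters held at least 1. A CCAAT box was found in Nid1 at position -91 and in Lamb1 at position -187, and in 33.8% of all promoters. None of these 4 promoters held the TATA letters or the AP-1 letters, which occurred in 12.4% and 6.75% of all promoters. Nid1, Lamb1 and Lama5 held 16, 14 and 19 CpG dinucleotides and Lamb2 held 3, against a median of 6. These matches describe letters and not bound sites, and their part in the changes after surgery was not tested.

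The files place Nid1 on mouse chromosome 13 from 13437602 to 13512275 (mm10), where its longest annotated transcript has 20 exons. Lama5 lies on chromosome 2 from 180176373 to 180225912, Lamb1 on chromosome 12 from 31265146 to 31329644, Lamb2 on chromosome 9 from 108479857 to 108490530 and Lamc1 on chromosome 1 from 153218922 to 153332786. The libraries came from a stranded kit, but whether the counting used strand is not given in the sources used here, so reads of Nid1 and Lama3 cannot be told apart from those of the antisense genes Gm48682 and Gm29200 that overlap them.

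Values are FPKM (fragments per kilobase of transcript, scaled to library size), which are per length and so allow levels to be compared between genes. Read counts were not used here and the depth is unknown. The sum of all FPKM lay between 446531 and 740140 in each library, and the 10 highest genes made up 36.0% to 49.6% of it. All 8 lens epithelium markers had a mean of at least 1 FPKM in every group, and their sum was lower at 24 h PCS, with medians of 34500 and 18400 FPKM in WT and 42600 and 12500 in β8ITG-cKO. The crystallin genes Cryaa and Cryab made up almost all of this sum. WT 0 h replicate 2 stood apart from its group at 13600, with the lens crystallin gene Cryaa listed at 0, which may be a failed estimate. The 7 lens fiber markers summed to 3880 to 5190 FPKM in WT 0 h and 640 to 1290 in WT 24 h libraries, and to 5100 to 5650 and 691 to 770 in β8ITG-cKO. The 9 retinal photoreceptor markers summed to 840 to 982 FPKM in β8ITG-cKO 24 h libraries against 72.3 to 134 in WT 24 h libraries, and WT 0 h replicate 2 stood apart at 1140. The 5 neutrophil markers summed to 0.134 to 0.665 FPKM over the 0 h libraries and 10.5 to 57.9 over the 24 h libraries, with Ly6g and Mpo at 0 throughout. The part of these cells in the results below was not tested. Itgb8 itself did not separate the genotypes, and its value covers the whole gene rather than the deleted exon. At 0 h the 3 WT libraries had 7.26, 10.8 and 8.42 FPKM of it and the 3 β8ITG-cKO libraries 6.83, 4.58 and 7.31, and at 24 h PCS they had 9.08, 8.38 and 9.58 against 9.28, 11.8 and 10.3.

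Nid1 was by far the most abundant member and its mRNA fell after surgery in both genotypes. It had 265, 255 and 287 FPKM in WT 0 h libraries and 157, 109 and 117 in WT 24 h libraries. In β8ITG-cKO LCs it had 279, 463 and 386 FPKM at 0 h and 94.5, 126 and 136 at 24 h PCS. In neither genotype did the 0 h and 24 h libraries overlap, and the lowest 0 h library of all was above the highest 24 h library. The summed lens fiber and epithelium markers were lower over the same interval, as given above, but single epithelium markers differed. The epithelial transcription factor gene Foxe3 changed by -1.05 in WT and -2.15 in β8ITG-cKO (limma adjusted p = 0.0091 and 0.000223). Prox1, Pitx3 and Cryab also passed as lower in both genotypes. Cdh1, the E-cadherin gene, rose by 0.44 in WT and changed by -1.15 in β8ITG-cKO (limma adjusted p = 0.0474 and 0.000119). Pax6 and Six3 passed in neither genotype, at -0.20 and -0.11 in WT (limma adjusted p = 0.269 and 0.566). In β8ITG-cKO both were lower and just above the threshold, at -0.33 and -0.39 (limma adjusted p = 0.0515 and 0.0554). The part of these markers in the fall of Nid1 was not tested. The fall on the log2(FPKM + 1) scale was -1.09 (SE 0.18, adjusted p = 0.00474) in WT and -1.64 (SE 0.21, adjusted p = 0.000648) in β8ITG-cKO, by limma-trend with Benjamini-Hochberg adjustment over all genes tested. These are ratios of group means of 2.1 and 3.16. The difference between both falls, -0.56 with a 95% confidence interval of -1.19 to 0.08, missed the threshold (limma interaction, adjusted p = 0.275). At 24 h PCS the genotypes differed by -0.10 (interval -0.58 to 0.37, limma adjusted p = 0.823).

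**Figure D1:**
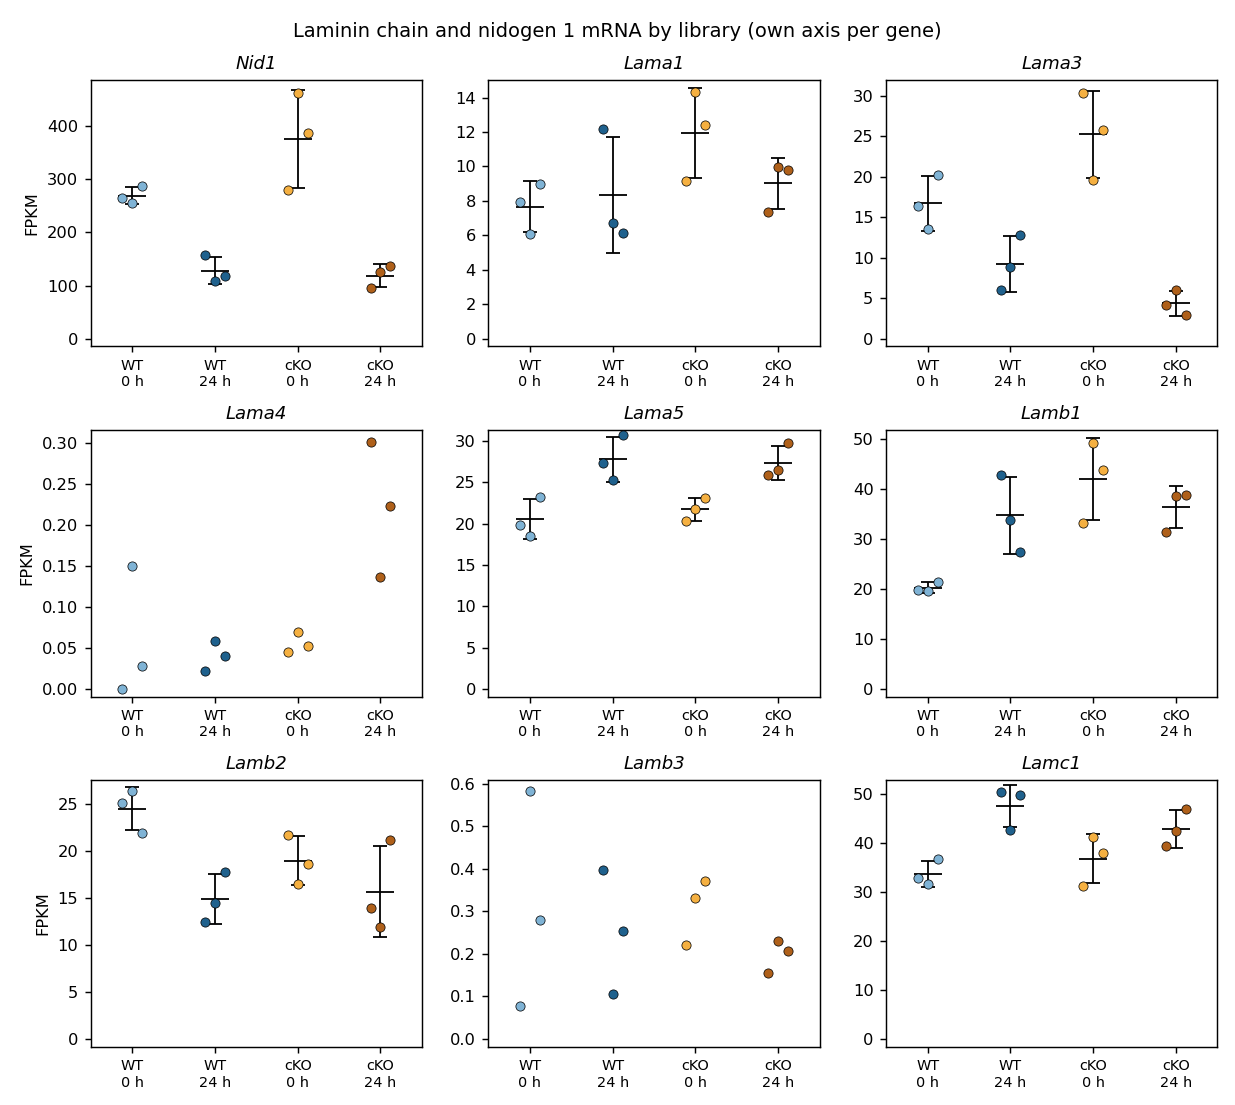
FPKM of the 9 members in each of 12 libraries (y axis, own scale per gene) by group (x axis, cKO is β8ITG-cKO). Points are libraries, and bars give the mean and SD of 3 libraries except for Lama4 and Lamb3, which lie near 0 throughout. Nid1 lies at 255 FPKM or more in all 0 h libraries and at 157 or less in all 24 h libraries, and Lama3 falls to between 2.98 and 6.04 FPKM in β8ITG-cKO 24 h libraries.

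Among the α chains, Lama3 gave the largest difference over time. This gene encodes the α3 chain of laminin-332, the anchoring laminin of stratified epithelia. It had 16.4, 13.5 and 20.2 FPKM in WT 0 h libraries and 5.98, 8.81 and 12.8 in WT 24 h libraries. In β8ITG-cKO LCs it had 30.3, 19.6 and 25.7 FPKM at 0 h and 4.15, 6.04 and 2.98 at 24 h PCS. The 24 h values lay below the 0 h values in both genotypes, by a wide margin in β8ITG-cKO and by less than 1 FPKM in WT. The fall was -2.30 (SE 0.23, limma adjusted p = 0.000193) in β8ITG-cKO and -0.83 (SE 0.26, limma adjusted p = 0.0465) in WT. The WT call held only when WT 24 h replicate 3 was the library left out (-1.08, limma adjusted p = 0.0117). Without any one of the other 5 WT libraries the change was -0.59 to -0.97, with limma adjusted p between 0.06 and 0.136, and with no filter on low values it was 0.116. The β8ITG-cKO call held without any single library.

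Lama5 encodes α5, the chain of laminin-511 and laminin-521 and the most widespread α chain of adult basement membranes. Its FPKM were 19.8, 18.5 and 23.2 in WT 0 h and 27.3, 25.3 and 30.7 in WT 24 h libraries, with no overlap. In β8ITG-cKO they were 20.3, 21.7 and 23.1 at 0 h and 25.9, 26.5 and 29.7 at 24 h, again with no overlap. The difference was 0.42 (SE 0.15, limma adjusted p = 0.0635) in WT and 0.32 (SE 0.10, limma adjusted p = 0.0285) in β8ITG-cKO. In 1 fit over all groups the WT rise passed (limma adjusted p = 0.0132). With libraries rescaled to the same median it was 0.17 (limma adjusted p = 0.511). With any single library left out it missed the threshold (limma adjusted p 0.0661 to 0.189). The β8ITG-cKO rise is small and of the size of the shift of the whole transcriptome. The median of all tested genes lay at 0.16 in WT and 0.23 in β8ITG-cKO, and when libraries were rescaled to the same median the β8ITG-cKO difference of Lama5 was 0.03 (limma adjusted p = 0.80). That call was also lost without β8ITG-cKO 0 h replicate 1 (0.28) or 2 (0.32) or 24 h replicate 2 (0.34) or 3 (0.26), with limma adjusted p of 0.0613 to 0.0808.

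Lama1, the α1 chain of laminin-111 that is typical of embryonic basement membranes, gave no call. Its FPKM were 7.93, 6.06 and 9.0 in WT 0 h, 12.2, 6.72 and 6.12 in WT 24 h, 9.15, 14.3 and 12.4 in β8ITG-cKO 0 h and 7.33, 9.95 and 9.77 in β8ITG-cKO 24 h libraries. The 0 h and 24 h libraries overlapped in both genotypes. The change was 0.07 (interval -0.53 to 0.67) in WT, which turned to -0.17 on rescaling, and -0.36 (interval -0.77 to 0.05) in β8ITG-cKO, which reached -0.63 on rescaling (limma adjusted p = 0.0247). Without β8ITG-cKO 0 h replicate 1 the latter was -0.52 (limma adjusted p = 0.0356).

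Lama4 encodes α4, a chain of endothelial and mesenchymal basement membranes, and was close to 0 in every library. It had 0, 0.15 and 0.0275 FPKM in WT 0 h, 0.0223, 0.0583 and 0.0405 in WT 24 h, 0.0455, 0.0697 and 0.0527 in β8ITG-cKO 0 h and 0.301, 0.136 and 0.223 in β8ITG-cKO 24 h libraries. It failed the filter of a mean of at least 0.5 FPKM, so 7 of 9 members were tested. With no filter, Lama4 passed over time in β8ITG-cKO (0.21, limma adjusted p = 0.0443). The β8ITG-cKO 24 h libraries lay above the β8ITG-cKO 0 h ones, and the 7 vascular endothelium markers summed to 5.9 to 8.12 FPKM in the former and 1.5 to 2.44 in the latter. The part of vascular cells in that difference was not tested.

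The β chains moved in opposite directions in WT LCs. Lamb1 encodes β1, found in most basement membranes, and Lamb2 encodes β2, typical of the neuromuscular junction, the kidney glomerulus and the eye. Lamb1 had 19.8, 19.5 and 21.4 FPKM in WT 0 h libraries and 42.8, 33.7 and 27.4 in WT 24 h libraries. Lamb2 had 25.1, 26.3 and 21.9 FPKM in WT 0 h libraries and 12.4, 14.4 and 17.7 in WT 24 h libraries. Neither gene overlapped between times. By limma-trend, Lamb1 rose by 0.73 (SE 0.18, adjusted p = 0.0195) and Lamb2 changed by -0.69 (SE 0.17, adjusted p = 0.0179). On rescaling, the Lamb1 rise was 0.47 (limma adjusted p = 0.0684) and the Lamb2 fall was -0.94 (limma adjusted p = 0.0065). Both calls were lost without WT 0 h replicate 1 or 2 or WT 24 h replicate 1 or 2. Lamb1 was then 0.57 to 0.73 (limma adjusted p 0.0519 to 0.0733) and Lamb2 was -0.58 to -0.68 (limma adjusted p 0.0535 to 0.0724).

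In β8ITG-cKO LCs, Lamb1 was already high at 0 h. It had 33.1, 49.2 and 43.7 FPKM at 0 h and 31.4, 38.6 and 38.8 at 24 h PCS, and the times overlapped (-0.19, interval -0.56 to 0.17, limma adjusted p = 0.354). Lamb2 had 21.7, 16.5 and 18.6 FPKM at 0 h and 13.9, 11.9 and 21.1 at 24 h PCS, also with overlap (-0.29, interval -0.75 to 0.18, limma adjusted p = 0.278). On rescaling both passed as falls, Lamb1 at -0.49 and Lamb2 at -0.57 (limma adjusted p = 0.0452 and 0.0345). Without β8ITG-cKO 24 h replicate 3, Lamb2 changed by -0.51 (limma adjusted p = 0.0269). Lamb3, which encodes the β3 chain of laminin-332, had 0.0784 to 0.583 FPKM over the 12 libraries and failed the filter. It was listed above 0 in each library, with 0.583 in WT 0 h replicate 2 as the highest value. Transcripts of β3, the partner of α3 in laminin-332, were thus at 0.583 FPKM or less in libraries with 2.98 to 30.3 FPKM of Lama3.

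Lamc1 encodes γ1, the chain that nidogen binds and that most laminins share. It had 32.9, 31.7 and 36.8 FPKM in WT 0 h libraries and 50.4, 42.7 and 49.8 in WT 24 h libraries. In β8ITG-cKO it had 31.3, 41.2 and 38.1 FPKM at 0 h and 39.4, 42.5 and 47.0 at 24 h PCS. The times did not overlap in WT and did overlap in β8ITG-cKO. The WT rise was 0.48 (SE 0.14, limma adjusted p = 0.0341), or 0.22 on rescaling (limma adjusted p = 0.331). It held only when WT 24 h replicate 2 was the library left out (0.56, limma adjusted p = 0.0399), and without any one of the other 5 it was 0.44 to 0.54 (limma adjusted p 0.0541 to 0.128). The β8ITG-cKO change was 0.22 (limma adjusted p = 0.183) and -0.07 on rescaling. Nid1 mRNA was 7.8 to 8.06 times that of its ligand chain Lamc1 in WT 0 h libraries and 2.35 to 3.12 times in WT 24 h libraries. In β8ITG-cKO the ratio was 8.9 to 11.2 at 0 h and 2.4 to 2.96 at 24 h PCS, a ratio within libraries that rescaling does not alter.

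Over time in WT, 2 of the 7 tested members passed as higher (Lamb1 and Lamc1) and 3 as lower (Lama3, Lamb2 and Nid1), where 20.9% of the 15146 tested genes were called higher and 8.81% lower. The median change of the 7 was 0.07 against 0.16 over all genes tested. Under the study's additional criteria (group means that differ by a ratio above 2 and by more than 2 FPKM, the larger being 2 FPKM or more), Nid1 was the one member left, against 14.3% of genes. In β8ITG-cKO, 1 of 7 passed as higher (Lama5) and 2 as lower (Lama3 and Nid1), where 35.4% of 15237 tested genes were called higher and 10.7% lower. The median of the 7 was -0.29 against 0.23 over all genes, and Lama3 and Nid1 met the additional criteria, as did 15.1% of genes. Rescaling changed these counts to 0 higher and 3 lower in WT and 0 higher and 5 lower in β8ITG-cKO. Over all genes it took the calls from 3165 higher and 1335 lower to 2199 and 2447 in WT, and from 5394 and 1636 to 3217 and 3008 in β8ITG-cKO.

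**Figure D2:**
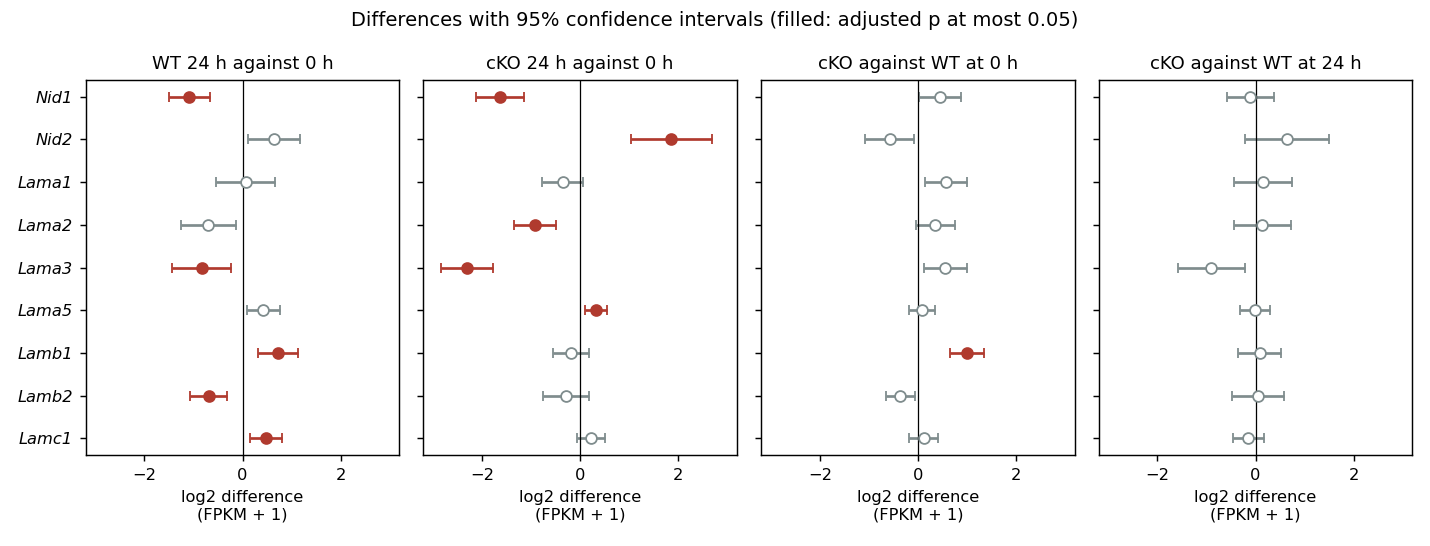
Differences on the log2(FPKM + 1) scale (x axis) with 95% confidence intervals for 9 tested laminin and nidogen genes (y axis) in 4 comparisons, with filled points for adjusted p of at most 0.05. Nid1 and Lama3 lie left of 0 over time in both genotypes, and no point is filled between the genotypes at 24 h PCS.

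Between the genotypes at 0 h, Lamb1 was the 1 member of 7 that passed, higher in β8ITG-cKO LCs. Its 33.1 to 49.2 FPKM in β8ITG-cKO lay above the 19.5 to 21.4 in WT with no overlap, a difference of 1.0 (SE 0.15, limma adjusted p = 0.0134) and a ratio of means of 2.08. At this time 4.18% of 14708 tested genes were called higher and 2.75% lower, and 2.52% met the additional criteria, which Lamb1 did. The call was lost without WT 0 h replicate 1 (0.99, limma adjusted p = 0.0534) or β8ITG-cKO 0 h replicate 3 (0.96, limma adjusted p = 0.076). It was also lost with no filter on low values (limma adjusted p = 0.0532). The median over the 7 members was 0.45 against 0.02 over all genes, with Lama1 at 0.57 (limma adjusted p = 0.113), Lama3 at 0.56 (0.12), Nid1 at 0.45 (0.19), Lamc1 at 0.12 (0.621), Lama5 at 0.08 (0.709) and Lamb2 at -0.36 (0.146). Lama1 and Lamb2 did not overlap between genotypes at 0 h, while the other 4 did. The gaps were narrow, with Lama1 at 9.0 FPKM or less in WT and 9.15 or more in β8ITG-cKO. Lamb2 was at 21.9 or more in WT and 21.7 or less in β8ITG-cKO. The share of all genes without overlap was not computed. The corneal epithelium list summed to 536 to 912 FPKM in β8ITG-cKO 0 h and 208 to 269 in WT 0 h libraries, almost all of it Aldh3a1, with the keratins Krt5, Krt12 and Krt14 at 6.88 FPKM or less in every library. The 5 red blood cell markers went the other way, with 6.52 to 15.8 FPKM in β8ITG-cKO 0 h and 68.0 to 153 in WT 0 h libraries. Among lens epithelium markers, Foxe3 was higher in β8ITG-cKO by 0.89 and Cdh1 by 0.68 (limma adjusted p = 0.0278 and 0.0116). No other gene of that list passed, with Six3 at 0.41, Prox1 at 0.01 and Pax6 at -0.035 (limma adjusted p = 0.063, 0.96 and 0.856). The part of these markers in the difference of Lamb1 was not tested.

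At 24 h PCS no member passed between the genotypes by limma-trend, and 1 had an unadjusted p under 0.05. That member was Lama3 (-0.90, interval -1.59 to -0.21, limma adjusted p = 0.134), whose WT and β8ITG-cKO libraries overlapped narrowly at 5.98 and 6.04 FPKM. Among all 15366 tested genes, 5.64% were called higher in β8ITG-cKO and 0.644% lower, and 3.66% met the additional criteria. The intervals at 24 h PCS were -0.32 to 0.28 for Lama5, -0.46 to 0.17 for Lamc1, -0.35 to 0.52 for Lamb1, -0.48 to 0.58 for Lamb2 and -0.44 to 0.73 for Lama1. Those genes may thus still differ by up to these amounts. The members' median was -0.02 against 0.03 over all genes.

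The changes over time were set against each other in 1 fit over all 12 libraries. Lama3 changed by -1.47 more in β8ITG-cKO than in WT (SE 0.38, limma adjusted p = 0.0348) and Lamb1 by -0.92 (SE 0.25, limma adjusted p = 0.0397). These were 2 of 7 members called lower and 0 called higher, against 2.56% and 6.83% of 15262 genes, with a median over the members of -0.43 against 0. Lamb1 rose in WT and not in β8ITG-cKO LCs, which began at about the level that WT LCs had at 24 h PCS. Both calls stand near the threshold. With no filter on low values, Lama3 had a limma adjusted p of 0.0761 and Lamb1 of 0.0728. Lama3 lost its call without WT 0 h replicate 1 or 2, WT 24 h replicate 2, β8ITG-cKO 0 h replicate 1 or 3, or β8ITG-cKO 24 h replicate 1 or 3 (-1.27 to -1.47, limma adjusted p 0.0586 to 0.0773). Lamb1 kept its call only without WT 24 h replicate 3 or β8ITG-cKO 0 h replicate 1, and without any one of the other 10 libraries it was -0.76 to -0.97 (limma adjusted p 0.0507 to 0.098).

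The order of the members was Nid1, Lamc1, Lamb2, Lama5, Lamb1, Lama3, Lama1, Lamb3 and Lama4 in WT 0 h libraries. Lamb2, Lama5, Lamb1 and Lama3, with means of 24.4, 20.5, 20.2 and 16.7 FPKM, each overlapped their neighbour there, and so did Lamb3 and Lama4. In WT 24 h libraries Lamb1 had rank 3 at 34.7 ± 7.75 FPKM (SD, n = 3) behind Lamc1 at 47.6 ± 4.29, with overlap, and Lamb2 had rank 5. In β8ITG-cKO 0 h libraries Lamb1 had rank 2 at 42.0 ± 8.19 FPKM, overlapping Lamc1 at 36.9 ± 5.04. In β8ITG-cKO 24 h libraries the order was Nid1, Lamc1, Lamb1, Lama5, Lamb2, Lama1, Lama3, Lama4 and Lamb3, and neighbours overlapped only between Lama4 and Lamb3.

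The make-up of chain mRNA was taken per library as the share of each gene in the summed FPKM of its chain type, for the α chains, with Lama2 counted in, and the β chains. Such shares do not depend on the scaling of a library. Lama5 held 32.1% ± 2.47 (SD, n = 3) of α chain mRNA in WT 0 h and 48.8% ± 4.05 in WT 24 h libraries, and 25.9% ± 0.832 and 51.1% ± 4.6 in β8ITG-cKO. Lama3 held 25.9% ± 1.01 and 16.3% ± 6.1 in WT and 30.2% ± 7.03 and 8.19% ± 2.68 in β8ITG-cKO. The summed α mRNA was 64.3 ± 10.9 FPKM at 0 h and 57.1 ± 5.44 at 24 h PCS in WT, and 83.8 ± 2.77 and 53.8 ± 5.82 in β8ITG-cKO. In both genotypes Lama5 was thus the leading α chain at 24 h PCS, in each of 6 libraries at 44.4% or more.

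Among β chains, Lamb2 held 54.3% ± 3.55 (SD, n = 3) in WT 0 h libraries, where it exceeded Lamb1 in each library. In the other 3 groups Lamb2 held 30.4% ± 8.41 (WT 24 h), 31.4% ± 7.43 (β8ITG-cKO 0 h) and 29.7% ± 5.83 (β8ITG-cKO 24 h), and Lamb1 held the rest but for 0.712% or less of Lamb3. The β chain make-up of β8ITG-cKO LCs at 0 h, with Lamb1 between 60.1% and 74.6%, lay within the range of WT LCs at 24 h PCS, 60.4% to 77.0%, but for the lowest library. Summed β mRNA ranged from 43.5 to 66.0 FPKM over the 12 libraries. These shares are a description, with no test.

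**Figure D3:**
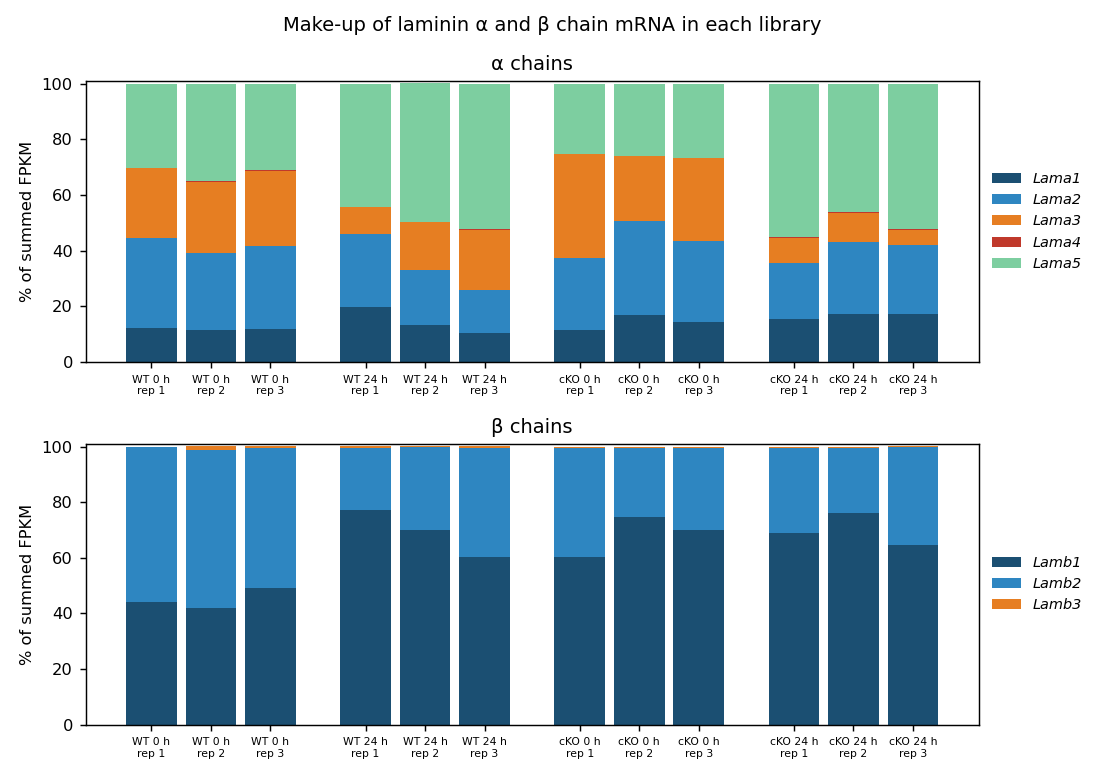
Share of each gene in the summed FPKM of the α or β chains (y axis, percent) in each of 12 libraries (x axis, cKO is β8ITG-cKO). Lama5 takes 44.4% or more of the α bars at 24 h PCS, and Lamb2 more than Lamb1 in the 3 WT 0 h bars alone.

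Further laminin and nidogen genes outside the 9 were measured as well. Lama2 encodes α2, the muscle and nerve laminin chain, and followed Nid1. It had 21.1, 14.7 and 22.3 FPKM in WT 0 h, 16.0, 10.1 and 9.04 in WT 24 h, 21.2, 28.2 and 25.3 in β8ITG-cKO 0 h and 9.41, 14.9 and 14.1 in β8ITG-cKO 24 h libraries. The times overlapped in WT (-0.70, SE 0.24, limma adjusted p = 0.0636) and did not in β8ITG-cKO (-0.92, SE 0.18, limma adjusted p = 0.00463). The difference between both falls, -0.22, missed the threshold (limma interaction, adjusted p = 0.73). The WT fall passed on rescaling (-0.95, limma adjusted p = 0.0305), in 1 fit over all groups (limma adjusted p = 0.03), without WT 0 h replicate 2 (-0.88, limma adjusted p = 0.0498) and without WT 24 h replicate 1 (-0.93, limma adjusted p = 0.0241). The 3 Schwann cell markers given here summed to medians of 112 FPKM in WT 0 h and 55.1 in WT 24 h libraries, and of 124 and 58.5 in β8ITG-cKO. Most of this was Pmp22, a myelin protein gene that epithelia also express, which fell in both genotypes (-1.10 and -1.06, limma adjusted p = 0.00353 and 0.00104). Egr2, also an early response gene, rose (1.59 and 1.53, limma adjusted p = 0.0235 and 0.0037), and the defining marker Sox10 was at 0.307 FPKM or less in every library. The part of Schwann cells in the Lama2 values was not tested.

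Nid2 encodes the other nidogen and went the other way from Nid1. It had 3.96, 4.88 and 3.10 FPKM in WT 0 h, 4.68, 7.71 and 8.18 in WT 24 h, 3.30, 1.55 and 2.29 in β8ITG-cKO 0 h and 10.6, 6.35 and 19.2 in β8ITG-cKO 24 h libraries. The β8ITG-cKO libraries did not overlap between times and the WT libraries did. The rise was 1.86 (SE 0.35, limma adjusted p = 0.00399) in β8ITG-cKO and 0.64 (SE 0.23, limma adjusted p = 0.0705) in WT. The difference between both rises, 1.22, missed the threshold (limma interaction, adjusted p = 0.131). So did that between the genotypes at 24 h PCS (0.64, limma adjusted p = 0.381). The WT rise passed without WT 24 h replicate 1 (0.86, limma adjusted p = 0.0264). At 24 h PCS Nid1 remained at 94.5 FPKM or more and Nid2 at 19.2 or less. Nid2 overlaps Rtraf on the opposite strand, whose reads cannot be told apart from its own here, and the β8ITG-cKO 24 h libraries are those with high photoreceptor and vascular marker sums. Lamc3, the γ3 gene, had 0.188 FPKM or less in every library and was not tested.

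**Figure D4:**
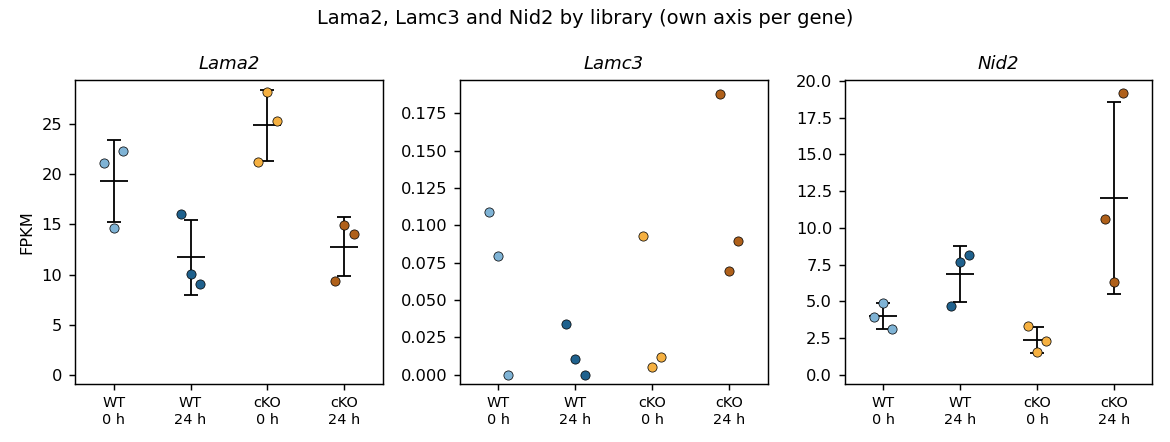
FPKM of Lama2, Lamc3 and Nid2 in each of 12 libraries (y axis, own scale per gene) by group (x axis, cKO is β8ITG-cKO). Points are libraries, and bars give the mean and SD of 3 libraries except for Lamc3, which is near 0. Nid2 lies at 1.55 to 3.30 FPKM in β8ITG-cKO 0 h libraries and at 6.35 to 19.2 in β8ITG-cKO 24 h libraries.

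Components that share the capsule with the members were counted from a list of 24 basement membrane genes, of which 21 were tested. In WT, 11 fell and 2 rose, with a median of -0.58, where 8.81% of all tested genes fell and 20.9% rose with a median of 0.16. In β8ITG-cKO, 11 fell and 4 rose, with a median of -0.62, where 10.7% of all tested genes fell and 35.4% rose with a median of 0.23. On rescaling, 12 fell and 1 rose in WT and 14 fell and 3 rose in β8ITG-cKO. Over all genes, 2447 of 15249 then fell and 2199 rose in WT, and 3008 of 15155 fell and 3217 rose in β8ITG-cKO. Npnt, which encodes the integrin ligand nephronectin, went from a mean of 49.4 to 6.0 FPKM in WT (-2.91, limma adjusted p = 0.000366) and from 58.7 to 7.31 in β8ITG-cKO (-2.84, limma adjusted p = 7.55e-05). Frem2, a component of the Fraser complex that anchors epithelia, changed by -1.99 in WT and -2.12 in β8ITG-cKO (limma adjusted p = 0.000812 and 0.000781). Col4a2, the α2 chain of type IV collagen, went from 555 to 209 FPKM in WT (-1.41, limma adjusted p = 0.00145) and from 778 to 194 in β8ITG-cKO (-1.95, limma adjusted p = 0.000798). Fbln2, the gene of fibulin-2, a matrix glycoprotein that binds nidogen, rose from 1.09 to 37.3 FPKM in WT and from 0.525 to 33.1 in β8ITG-cKO (4.08 and 4.43, limma adjusted p = 0.000398 and 1.79e-05). Agrn, the gene of the laminin-binding proteoglycan agrin, rose in both genotypes, by 0.81 in WT and 1.13 in β8ITG-cKO (limma adjusted p = 0.0196 and 0.00286). Col18a1, the gene of collagen XVIII, rose in β8ITG-cKO (1.22, limma adjusted p = 0.0385) and differed by 0.11 in WT (limma adjusted p = 0.766), and the interaction missed the threshold (limma adjusted p = 0.234).

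Between the genotypes at 0 h, 4 of the 21 were higher in β8ITG-cKO and none lower, or 2 and none on rescaling, with a median of 0.41 against 0.02 over all genes, of which 4.18% were called higher. Col4a6 and Col4a4, both type IV collagen genes, were higher by 0.78 and 0.60, and Pxdn, the peroxidasin that crosslinks type IV collagen, by 0.62 (limma adjusted p = 0.00987, 0.0445 and 0.0368). At 24 h PCS 5.64% of all tested genes were called higher in β8ITG-cKO and 0.644% lower. Of the 21, 1 gene passed, Egflam, which encodes pikachurin, a dystroglycan ligand of photoreceptor synapses. It had a mean of 5.79 FPKM in β8ITG-cKO and 1.04 in WT (1.74, limma adjusted p = 0.00161), in the libraries with 840 to 982 and 72.3 to 134 FPKM of photoreceptor markers. The interaction called 2 genes higher and 2 lower, where 6.83% of all tested genes were called higher and 2.56% lower. Egflam at 2.03 was among the former, and Ntn4, a netrin that binds the laminin γ1 chain, at -0.94 and Col4a6 at -0.78 were the latter (limma adjusted p = 0.0153, 0.0285 and 0.046).

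Among 10 receptors of laminin tested over time, 6 rose and 1 fell in WT (median 0.72), and 5 rose and 1 fell in β8ITG-cKO (median 0.29). Over all genes the medians were 0.16 and 0.23, with 20.9% and 35.4% called higher. On rescaling, 4 receptors rose and 2 fell in WT, and 4 rose and 3 fell in β8ITG-cKO with a median of -0.01. Over all genes, 2199 of 15249 then rose and 2447 fell in WT, and 3217 of 15155 rose and 3008 fell in β8ITG-cKO. Itga7, the α7 integrin of muscle laminin receptors, rose from a mean of 2.2 to 62.0 FPKM in WT (4.29, limma adjusted p = 0.000146) and from 3.39 to 57.7 in β8ITG-cKO (3.74, limma adjusted p = 7.84e-07). Its partner Itgb1 went from 40.6 to 123 FPKM in WT (1.51, limma adjusted p = 0.00424) and from 51.5 to 96.8 in β8ITG-cKO (0.90, limma adjusted p = 0.000401). Cd151, a tetraspanin that binds laminin-receptor integrins, rose by 1.22 in WT and 0.42 in β8ITG-cKO (limma adjusted p = 0.000875 and 0.00399). Sdc4, a syndecan, rose by 1.18 and 1.45 (limma adjusted p = 0.00238 and 4.7e-05). The falls were Bcam, a laminin α5 receptor, in WT (-0.96, limma adjusted p = 0.0262) and Dag1, the dystroglycan gene, in β8ITG-cKO (-0.50, limma adjusted p = 0.0118), and neither passed in the interaction (limma adjusted p = 0.138 and 0.523). At 0 h, 3 of 9 tested receptors were higher in β8ITG-cKO, or 1 on rescaling, where 4.18% of all genes were. They were Cd151, Itga3 and Sdc1 at 0.56, 0.54 and 0.47 (limma adjusted p = 0.0211, 0.0319 and 0.0404). None passed between the genotypes at 24 h PCS, and Cd151 and Sdc1 were lower in the interaction (-0.80 and -0.73, limma adjusted p = 0.00745 and 0.0338). The interaction called 2.56% of all tested genes lower.

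Of 6 hemidesmosome genes, 5 were tested over time, and 3 rose and none fell in each genotype, where 20.9% of all tested genes rose in WT and 35.4% in β8ITG-cKO. On rescaling 2 rose in each, and 1 fell in β8ITG-cKO. Over all genes, 2199 of 15249 then rose in WT, and 3217 of 15155 rose and 3008 fell in β8ITG-cKO. Cd151, Itga6 and Itgb4 stand on this list and on that of the receptors. Plec, the plectin gene, went from 110 to 365 FPKM in WT and from 134 to 269 in β8ITG-cKO (1.73 and 1.02, limma adjusted p = 0.000512 and 0.000617), and was lower in the interaction (-0.71, limma adjusted p = 0.0413). Dst, the dystonin gene, rose in WT (0.46, limma adjusted p = 0.0393) and differed by 0.16 in β8ITG-cKO (limma adjusted p = 0.281). Its interaction missed the threshold (-0.295, limma adjusted p = 0.311). Itgb4, the integrin subunit that binds laminin-332 at hemidesmosomes, had means of 0.241 FPKM in WT 0 h and 1.18 in WT 24 h libraries (0.77, limma adjusted p = 0.0526), and rose from 0.294 to 0.92 in β8ITG-cKO (0.57, limma adjusted p = 0.0102). The interaction of Itgb4 also missed the threshold (-0.198, limma adjusted p = 0.721). Among 10 tested genes that glycosylate dystroglycan for laminin binding, 1 fell in WT and none rose, and 2 rose and 1 fell in β8ITG-cKO, or 2 and 6 on rescaling. Without rescaling, 8.81% of all tested genes were called lower in WT and 10.7% in β8ITG-cKO, and 20.9% and 35.4% higher. With rescaling, 3217 of 15155 genes were called higher and 3008 lower in β8ITG-cKO. Tmem5, now named Rxylt1, was lower in β8ITG-cKO at 0 h (-0.59, limma adjusted p = 0.0274) and rose there by 24 h PCS (0.62, limma adjusted p = 0.00373).

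Likeness of pattern was measured as Pearson's r of log2(FPKM + 1) over the 12 libraries, against 6892 other genes averaging 5 FPKM or more (6893 for Lamb3). Genes with Gm, Rik, -ps, Rpl or Rps in their names were left out of the comparison. The libraries share scaling, surgery time and genotype, so r is a description. The genes most like Nid1 were Col4a1 (0.994), Myo5b (0.993), Suco (0.992) and Col4a2 (0.992). Col4a1 and Col4a2 encode the chains of the commonest type IV collagen, the network to which nidogen links laminin, and Col4a1 had means of 1180, 561, 1600 and 499 FPKM in WT 0 h, WT 24 h, β8ITG-cKO 0 h and β8ITG-cKO 24 h libraries. The genes most like Lamc1 were Slc39a10 (0.925), Prrc2c (0.918), Stt3a (0.917) and Lama5 (0.914). For Lamb3, whose values are near 0, the highest r was lower, with Tbcd at 0.728, Rbm4 at 0.721, Tom1 at 0.704 and Lmbrd2 at 0.702. Within the family, Nid1 had r of 0.93 with Lama2 and 0.80 with Lama3, -0.71 with Lama5 and 0.01 with Lamb1.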

How the data were processed

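Total RNA of 12 pools of lens capsules was made into stranded libraries and sequenced as read pairs. The authors deposited Cuffdiff's FPKM for every gene and library, 45859 genes in each of 4 tables, with 1 pair of groups to a table. Per the submitters' processing notes, FastQC, cutadapt 1.12, TopHat2 2.1.0 and Cuffdiff 2.2.1 were used with mm10 and GRCm38.p5. No library's values differed between tables. The same tables hold Cuffdiff's means, tests and fold changes for each pair, which were not used. With FPKM alone, no counting error can be given, and differences of low genes are understated by the pseudocount.

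The log2(FPKM + 1) values of the 6 libraries in a comparison entered limma-trend (limma 3.58.1, R 4.3.3) for genes averaging 0.5 FPKM or more, with Benjamini-Hochberg adjustment over all genes tested and a threshold of 0.05. The interaction of genotype and time was fitted over all 12. The fit was also run on simulated data whose changes were larger than most of those given here. That run does not show whether small changes are found. Tables and figures used Python 3.11.15, pandas 2.3.3, numpy 2.4.6 and matplotlib 3.10.9, positions came from the files, and annotation from GENCODE on GRCm38.

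The members and gene lists were chosen with earlier results of these data known. Text names all members, Lama2, Lamc3 and Nid2, the 4 genes most like Lamc1, Lamb3 and Nid1, Itgb8, and from each other list up to 3 rises and 3 falls past the threshold with at least 5 FPKM in 1 group mean. Col4a1 and Itgb4 were given after their values were seen, as were markers beside a result. Alternatives were a pseudocount of 0.1, no filter, a filter of 2 FPKM, libraries rescaled to an equal median of the genes averaging 2 FPKM or more, the replicate number as a block, 1 fit over all groups, the study's criteria and each library left out. The values of some single genes on the lists are not reported here.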

Additional observations from a re-analysis of the deposited data

Results flagged for a closer look

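For 2 genes the change from 0 h to 24 h PCS differed between the genotypes by the limma interaction test, given as the change in β8ITG-cKO minus that in WT on the log2(FPKM + 1) scale. For Lama3 it was -1.47, with falls in both genotypes from means of 16.7 to 9.19 FPKM in WT and 25.2 to 4.39 in β8ITG-cKO. For Lamb1 it was -0.92, with means of 20.2 and 34.7 FPKM in WT and 42.0 and 36.3 in β8ITG-cKO. In both genes the β8ITG-cKO mean was above the WT mean at 0 h, and in Lama3 that difference missed the threshold (limma adjusted p = 0.12). Strain and deletion cannot be told apart in these differences.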

How the results depend on the processing

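Nid1 over time in both genotypes and Lama3 and Nid2 in β8ITG-cKO kept direction and side of the threshold under every alternative run, and so did Lama2 in β8ITG-cKO except under the study's criteria, with a ratio of means of 1.95. Direction turned on rescaling for Lama1 in WT (-0.17), Lamc1 in β8ITG-cKO (-0.073) and Lamb2 at 24 h PCS (-0.017), none of which was called. With each library left out, direction turned in ranges of -0.21 to 0.24 for Lama1 in WT, at 24 h PCS of -0.023 to 0.42 for Lama1, -0.08 to 0.053 for Lama5, -0.072 to 0.24 for Lamb1, -0.18 to 0.21 for Lamb2, -0.21 to 0.054 for Nid1 and -0.015 to 0.365 for Lama2, and of -0.37 to 0.007 for Lama2 in the interaction. Counts of members called were 5 over time in WT, 3 on rescaling, 1 with the study's criteria and 1 to 4 with a library left out, 3 over time in β8ITG-cKO, 5 on rescaling and 2 to 3 with a library left out, 1 at 0 h, 0 with no filter and 0 to 1 with a library left out, and 2 in the interaction, 0 with no filter, 1 with the replicate block and 0 to 2 with a library left out. Over all genes, 4500 calls in WT became 2159 with the criteria and 2512 to 5087 with a library left out, and 7030 in β8ITG-cKO became 2294 and 5639 to 6300. At 0 h, 1020 became 371 with the criteria, 254 with no filter, 269 with the block and 136 to 756 with a library left out. At 24 h PCS, 966 became 562 with the criteria, 574 with a filter of 2 FPKM, 1642 in 1 fit over all groups and 439 to 1108 with a library left out. In the interaction, 1433 became 930 with a filter of 2 FPKM, 927 with the block and 688 to 1921 with a library left out. The cause was not tested, other than that fewer libraries or more genes entered some of these fits.

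Replicate numbers did not pair the samples: the deviations of same-numbered libraries from their group means had correlations of -0.249 to 0.096. With the number as a block, Lama5 in WT (limma adjusted p = 0.039) and Lama1 in β8ITG-cKO (0.0428) were called, and Lama3 in the interaction (0.0553) was not. No other call on the members, Lama2 or Nid2 changed with it.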
